A study of Xenopus tropicalis with 12 samples.

Results

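Genes of BMP, activin and Smad signaling were followed through peak lists of TR ChIP-Seq from Xenopus tropicalis tadpole intestine. They were taken by symbol from the lists themselves: every bmp, bmpr, gdf, smad, acvr, inhb, grem and smurf gene with a number or subtype letter in its name, together with nog, chrd, fst, bambi and tob1. This gave 47 genes, called members here, of the 19768 genes that the 12 lists name. They comprised 19 BMP and GDF ligands, 3 activin and inhibin subunits, 9 receptors, the pseudoreceptor bambi, 4 extracellular antagonists and 7 Smads. The others were the intracellular regulators smurf1 and tob1, and 2 genes that match by name but are no ligands, the protease bmp1 and the kinase bmp2k. The reference gene table held smad4.2, smad6.2, inhbb, bmp7.1 and smurf2 as well, which no list names and which were not analysed here.

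ChIP-Seq sequences the DNA fragments that come down with an antibody against a chromatin protein, and a peak is a stretch of genome where such fragments pile up. The antibody was polyclonal and bound both thyroid hormone receptors, TRα and TRβ, so in wild-type intestine the lists do not tell the receptors apart. The 4 conditions were TRα−/− intestine with T3 treatment, TRα−/− intestine without it (TRα−/− control), wild-type intestine with T3 treatment, and wild-type intestine without it (wild-type control). All tadpoles were at stage 54, before metamorphosis, and T3, the thyroid hormone, was given at 10 nM for 18 h. Each condition was 1 ChIP DNA sample, sequenced as 3 technical libraries, and the number of tadpoles behind a sample is not stated. The spread between libraries is therefore that of library making and sequencing, not of animals, and p-values measure only this spread. Peaks had been called in each library by itself, with no input library.

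BMPs, GDFs and activins are secreted ligands that bring type I and type II receptor kinases together on the cell surface. The receptors phosphorylate Smads, which enter the nucleus and act with other factors on target genes. Smad1, Smad5 and Smad9 serve most BMPs, and Smad2 and Smad3 serve activin and nodal. Smad4 is the partner of both branches, and Smad6 and Smad7 are inhibitors. Smad5 was not among the members. Noggin, chordin, follistatin and gremlin hold ligands outside the cell. In the Xenopus intestine, BMP4 is made by connective tissue during remodeling of the larval gut into the adult one. A TR that binds at a gene may regulate it with T3, but a peak alone shows only where the receptor was.

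The libraries differed in length of list. TRα−/− T3 libraries held 17414 to 30916 peaks and TRα−/− control libraries 38961 to 44196, against 34933 to 44567 in wild-type T3 and 34644 to 63333 in wild-type control libraries. Read totals are not part of the lists. Depth is therefore unknown, and the part of list length in each difference below was not tested except where an equal number of peaks is given. The background level recovered from pileup and fold enrichment, in fragments, was 0.523 and 0.664 in wild-type T3 libraries 2 and 3, against 0.0898 in wild-type control library 1, the lowest, and 0.118 in TRα−/− control library 1. The other libraries ranged from 0.149 to 0.426. The weakest peak had a pileup of 4 fragments in wild-type T3 libraries 2 and 3, of 2 in library 1 of either control, and of 3 elsewhere. Peak lists carry no marker of the tissue, and the label intestine could not be checked in them. Coordinates are those of the lists, on Xenbase v9.1.

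A region was kept when all 3 libraries of a condition had a peak in it, and a member was called TR-bound when a kept region lay in its extent or within 5 kb of it. By this rule 8 of the 47 members were bound in at least 1 condition, against 24.2% of all genes. They were 4 receptors (acvr2a, acvr2b, acvr1c, acvrl1), 2 Smads (smad2, smad7), 1 ligand (gdf9) and the kinase bmp2k. No activin or inhibin subunit, antagonist, pseudoreceptor or intracellular regulator was bound.

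With T3, 2 members were bound in TRα−/− intestine (4.26%, against 11.5% of all genes) and 8 in wild-type intestine (17.0%, against 21.2%). Without T3, 3 members were bound in TRα−/− intestine (6.38%, against 13.5%) and 6 in wild-type intestine (12.8%, against 16%). Over both treatments TRα−/− intestine had 3 bound members (6.38%, against 15.6%) and wild-type intestine 8 (17.0%, against 23.1%). All 3 members bound in TRα−/− intestine, acvr2a, acvr2b and smad2, were also bound in wild-type intestine, while smad7, acvr1c, acvrl1, gdf9 and bmp2k were bound in wild type and not in TRα−/−. These are 5 of 47, beside 8.56% of all genes, and no member was bound in TRα−/− alone, beside 1.06%. In wild-type intestine gdf9 and bmp2k were bound with T3 alone, beside 7.13% of all genes, and no member was bound without T3 alone, beside 1.89%. Only smad2 and acvr2b were bound in all 4 conditions, where 8.52% of all genes were.

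Leaving out 1 library lowers the number of libraries that must share a peak from 3 to 2, which by itself tends to raise counts. How far they rose differed with the library left out, for members and for all genes. When 1 library was left out and a peak in the remaining pair was asked for, TRα−/− T3 had 5 bound members without library 2 (13.8% of all genes), 3 without library 1 (15.9%) and 3 without library 3 (12.8%). TRα−/− control had 8 without library 1 (18.9%) and 5 without library 2 or library 3 (16.6% each). Wild-type T3 had 12 without library 1 (28.1%), 9 without library 2 (23.9%) and 11 without library 3 (23.5%). Wild-type control had 15 without library 1 (25.3%), 6 without library 2 (19.6%) and 6 without library 3 (17.8%). Library 1 held the shortest list of every condition but TRα−/− control, where it held the longest. It had the lowest background level of each condition: 0.149 in TRα−/− T3, 0.118 in TRα−/− control, 0.251 in wild-type T3 and 0.0898 in wild-type control. The source of the differences between left-out libraries was not tested.

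With the 17414 strongest peaks of each library, as many as the shortest list holds, 2 members were bound in TRα−/− T3 and 3 in wild-type T3, where 10.6% and 15.5% of all genes were. In TRα−/− control 2 members were bound and in wild-type control 4, where 10.3% and 11.7% of all genes were.

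**Figure D1:**
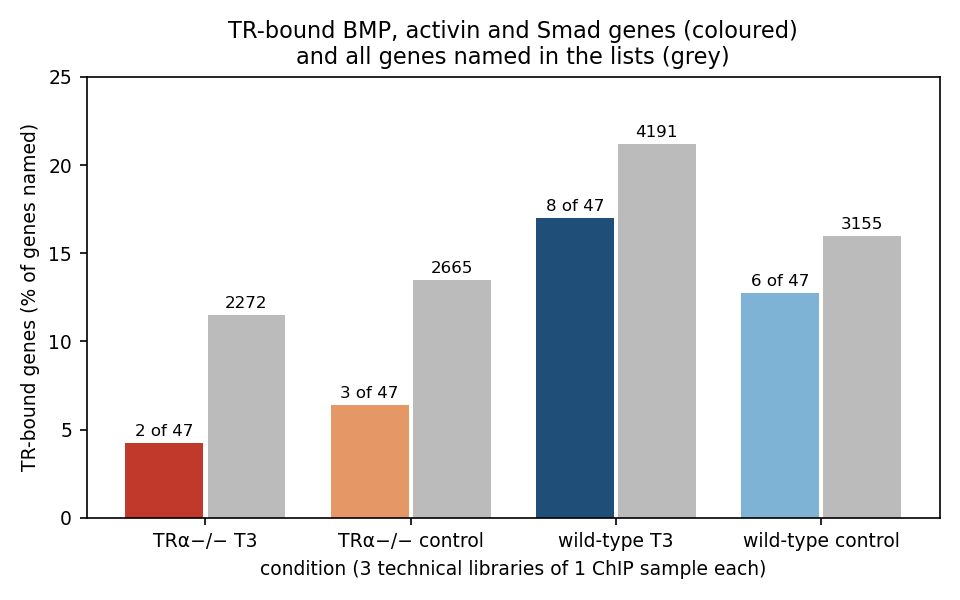
Bars give the percentage of genes bound by TR in each condition (y axis, % of genes named in the lists), coloured for the 47 members and grey for all 19768 genes, with the number bound above each bar. The coloured bar was lower than the grey one in each of the 4 conditions, with 2, 3, 8 and 6 of 47 members bound.

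Smad2 carries the signal of activin, nodal and TGFβ receptors into the nucleus, and it was the member with the best ranked peak and the only one with a region found in every library. The gene lies on the plus strand of chromosome 1 (192632075 to 192667130) and held 3 kept regions. The region at chr1:192652267-192652988 lies inside the gene, its centre 20552 bp from the gene start, on no listed exon. It had a peak in all 12 libraries, the only member region of 16 that did, where 26% of all 15152 kept regions had. Strength is given as the rank of the peak by −log10 p within the list of its own library, 1 being the strongest. In this region the ranks were 1215, 1051 and 1457 in TRα−/− T3 libraries and 2389, 2270 and 4368 in TRα−/− control libraries. In wild-type intestine they were 2125, 2570 and 6495 with T3 and 1834, 1564 and 2606 without it. TRα−/− T3 thus had the best ranks of all conditions, and its 3 libraries did not overlap with those of TRα−/− control or of wild-type T3. TRα−/− T3 lists were also the shortest. Fold enrichment over local background in this region was 9.99, 12.2 and 11.8 in TRα−/− T3 and 7.19, 9.56 and 7.19 in TRα−/− control libraries, again without overlap. It was 11.0, 13.9 and 8.16 in wild-type T3 and 8.33, 13.1 and 12.5 in wild-type control libraries, which overlapped with each other and with TRα−/− T3.

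A second region at smad2, chr1:192625787-192627488, lies 4587 bp upstream of the gene and also within 5 kb of its neighbour zbtb7c, so either gene could be named for it. It had a peak in 11 libraries. The ranks were 15736, 2703 and 2238 in TRα−/− T3 and, in the TRα−/− control libraries 2 and 3, 3884 and 2408. They were 4904, 4338 and 3756 in wild-type T3 and 3593, 9981 and 8538 in wild-type control libraries. The missing peak was that of TRα−/− control library 1, and ranks overlapped between all conditions. The third region, chr1:192669050-192669672, lies 1920 bp downstream of the gene and was kept in wild-type control alone, with ranks of 16029, 36996 and 15607. It also had a peak in 1 TRα−/− T3, 2 TRα−/− control and 2 wild-type T3 libraries, so no condition lacked it.

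**Figure D2:**
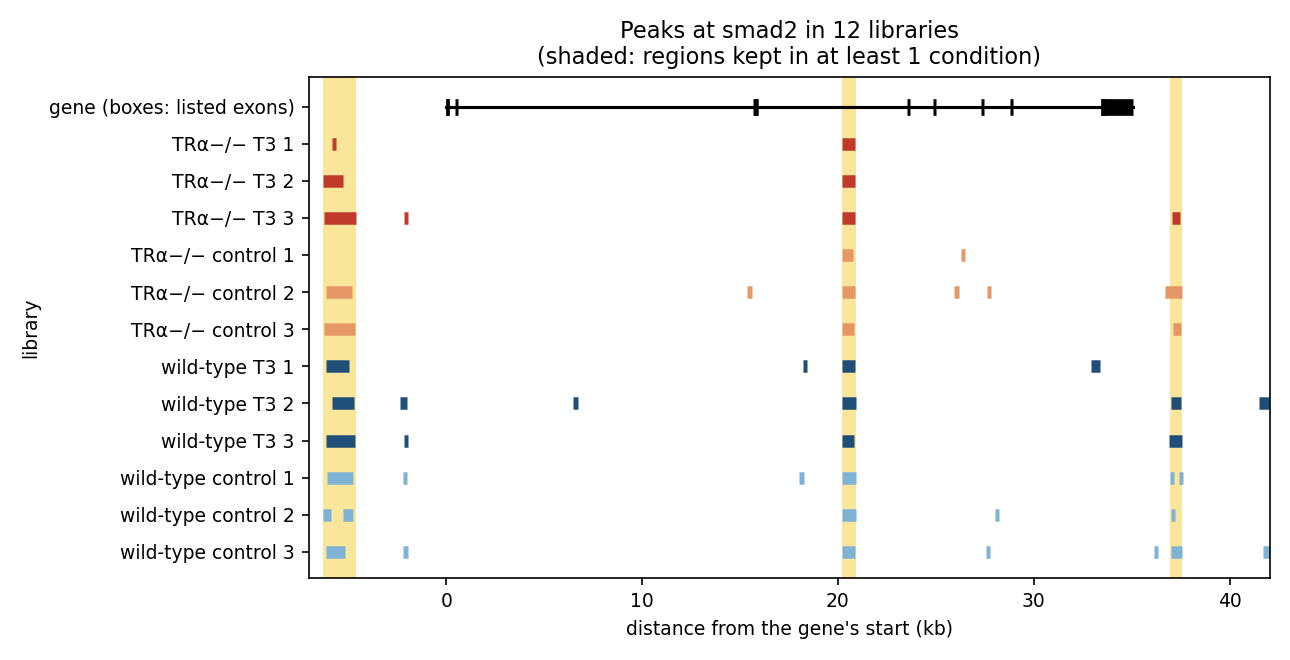
Peaks at smad2 in each of the 12 libraries (rows), as bars along the distance from the gene start (x axis, kb). Narrow peaks are drawn at a minimum width. The gene and its listed exons are on top and kept regions are shaded. The shaded region inside the gene, centred 20552 bp from the start, holds a bar in every row, and the upstream one a bar in 11 of 12 rows.

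Smad7 is an inhibitory Smad that blocks activated receptors, and the gene lies on the same chromosome as smad2, on the minus strand (192136675 to 192160944). It was bound in wild-type intestine with and without T3 and in neither TRα−/− condition. Its region at chr1:192138261-192138841, inside the gene near its end, had ranks of 5442 and 9698 in TRα−/− T3 libraries 2 and 3 and of 8085 and 16027 in TRα−/− control libraries 2 and 3. The ranks were 5828, 10706 and 6886 in wild-type T3 and 29780, 8291 and 3960 in wild-type control libraries. Library 1 was the one that lacked a peak in both TRα−/− conditions, so the wild-type call and the TRα−/− call differed by a single library each. The peak of wild-type control library 1 had a pileup of 2 fragments, the lowest of its list, and a −log10 q of 1.58. The TRα−/− peaks there had pileups of 5 to 6 fragments and a −log10 q of 3.24 to 5.16.

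The other smad7 region, chr1:192148181-192148733, lies inside the gene, its centre 12487 bp from the gene start. In wild-type T3 libraries its ranks were 8385, 16798 and 15801, and no wild-type control library had a peak there. One TRα−/− T3 library (rank 8944) and one TRα−/− control library (rank 17227) had one as well. Of 14 member regions it was the only one found in every wild-type T3 library and in no wild-type control library, a pattern that 2.9% of 14266 regions showed.

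Of the other Smads, smad3, the second receptor-regulated Smad of activin and nodal signals, had a peak in all 12 libraries but at no position shared by all 3 libraries of a condition. It held 2, 1 and 1 peaks in TRα−/− T3 and 1, 2 and 2 in TRα−/− control libraries, against 3, 3 and 4 in wild-type T3 and 3, 7 and 4 in wild-type control libraries. The TRα−/− counts were below the wild-type counts at either treatment without overlap, beside 5.78% of all genes with T3 and 2.01% without it. With 17414 peaks from each library, smad3 was called at neither treatment. Smad1 and smad9, the BMP-regulated Smads among the members, had a peak in 8 and 5 libraries. Smad4.1, the common partner, had one in 6, and smad6, the other inhibitory Smad, in 7. Smad9 had none in the wild-type control libraries, against 1, 1 and 2 peaks in TRα−/− control libraries.

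The receptors were the role with the most bound members, 4 of 9, beside 24.2% of all genes and 33.5% of genes of 30 kb and over. Their median extent was 57701 bp, against 12707.5 bp over all genes and 55710.5 bp for the protease and kinase pair. Whether length plays a part in this count was not tested. Acvr2b, a type II receptor for activins and several BMPs and GDFs, held 6 kept regions, more than any other member. It spans 88336 bp of chromosome 6 on the minus strand (6158547 to 6246882), and all 6 regions lie inside it and on no listed exon. Libraries had 4, 5 and 7 peaks at the gene in TRα−/− T3, 6, 10 and 8 in TRα−/− control, 6, 11 and 12 in wild-type T3 and 8, 7 and 11 in wild-type control. These counts overlapped in each comparison.

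The acvr2b regions that made the call differed between conditions. The most widely shared, chr6:6224934-6226024, had a peak in 11 libraries, with ranks of 12670, 13207 and 12153 in TRα−/− T3 and 4692 and 11178 in TRα−/− control libraries 2 and 3. Its ranks were 6335, 23797 and 10593 in wild-type T3 and 14911, 2793 and 6917 in wild-type control libraries. TRα−/− T3 libraries agreed closely there, inside the wider range of wild type. The region chr6:6203455-6204499 had ranks of 19522, 21559 and 5919 in TRα−/− control and of 17718, 21172 and 22142 in wild-type control libraries. It had 2 peaks among wild-type T3 libraries (ranks 6453 and 8978) and none among TRα−/− T3 libraries.

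One more acvr2b region, singled out after its values were seen, was kept in TRα−/− T3 alone. It entered the set through its peaks in that condition, so its presence there follows from the rule. At chr6:6169894-6170477 the TRα−/− T3 libraries had ranks of 6249, 9426 and 8337, while TRα−/− control had 1 peak (rank 12391), wild-type T3 had 1 (rank 23805) and wild-type control had none. The region chr6:6207940-6208458 was likewise kept in TRα−/− T3 alone, with ranks of 10504, 23631 and 15415, but it had peaks in 4 libraries of the other conditions. Of the remaining regions, chr6:6194085-6195260 was kept in wild-type T3 alone and had peaks in 8 libraries. The other, chr6:6232395-6233491, was kept in wild type with and without T3 and had peaks in 9 libraries.

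**Figure D3:**
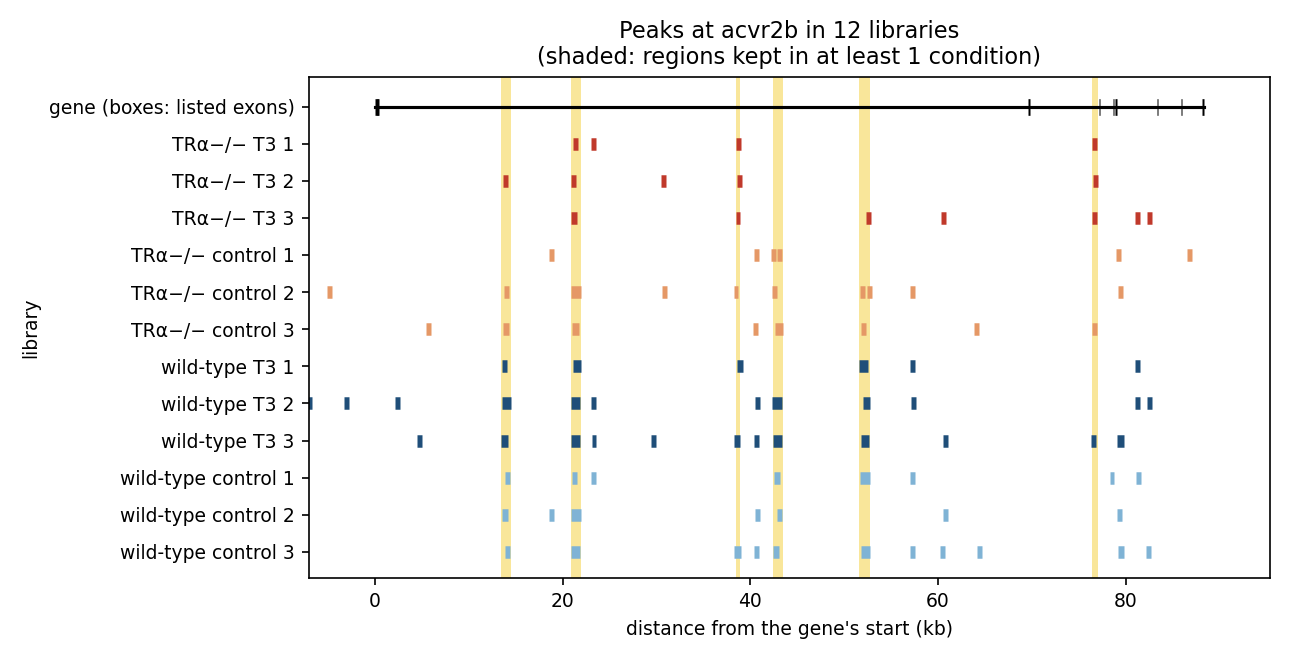
Peaks at acvr2b in each of the 12 libraries (rows), as bars along the distance from the gene start in the direction of transcription (x axis, kb). Narrow peaks are drawn at a minimum width. Listed exons are on top and the 6 kept regions are shaded. The region nearest the end of the gene has bars in all 3 TRα−/− T3 rows and in 2 of the other 9, and the one centred 42905 bp from the start has none in the TRα−/− T3 rows.

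Acvr2a, the other type II activin receptor, was bound in every condition but TRα−/− T3. Its region, chr9:72124841-72125777, lies 977 bp upstream of the gene, the only member region within 1 kb of a gene start, where 8.91% of 8196 regions at genes were. No TRα−/− T3 library had a peak there, against ranks of 5565, 8415 and 8370 in TRα−/− control libraries. In wild-type intestine the ranks were 6766, 17605 and 9394 with T3 and 19315, 14885 and 6452 without it. The gene as a whole had 1, 0 and 1 peaks in TRα−/− T3 libraries and 3, 3 and 4 in TRα−/− control libraries, so the peaks of TRα−/− T3 lay elsewhere in the gene. It was the only member with fewer peaks in TRα−/− T3 than in TRα−/− control libraries without overlap, where 6.43% of all genes had this. With 17414 peaks from each library no member had it, beside 0.536% of genes.

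Acvr1c, a type I receptor for nodal and activin known as ALK7 in mammals, was bound in wild-type intestine at both treatments. Its region, chr9:68921944-68923182, lies inside the gene, its centre 4578 bp from the gene start. It had a peak of rank 6571 in 1 TRα−/− T3 library and of rank 11269 in 1 TRα−/− control library. The ranks were 14899, 6752 and 17730 in wild-type T3 and 5056, 10017 and 8234 in wild-type control libraries. Both TRα−/− peaks were in library 3 and stood within the wild-type range.

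Acvrl1, a type I receptor known in mammals as ALK1 of the endothelium, was bound in wild-type intestine at both treatments too. Its full gene feature was not in the lists, so its extent may be too short. The region chr2:131770570-131771873 had a peak of rank 13201 in 1 TRα−/− T3 library and of ranks 39215 and 13983 in 2 TRα−/− control libraries. The ranks were 10409, 23120 and 31138 in wild-type T3 and 6757, 9231 and 17287 in wild-type control libraries. The TRα−/− peaks of ranks 13201 and 13983 fell in the wild-type range, and that of rank 39215 was weaker than every wild-type peak there. Every wild-type library had a peak in the region, and only some TRα−/− libraries did.

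Among the unbound receptors acvr1, the type I BMP receptor known as ALK2, came nearest to a call. It had a peak in all 12 libraries, numbering 4, 4 and 1 in TRα−/− T3 and 5, 1 and 5 in TRα−/− control, and 3, 3 and 3 in wild-type T3 and 3, 5 and 2 in wild-type control libraries. In each condition some position was shared by 2 of 3 libraries and none by all 3. Its best peak had rank 2161, in wild-type control library 1, better than any peak of acvr2b, acvr1c, acvrl1 or acvr2a. The type I activin receptor acvr1b had a peak of rank 1460 in wild-type T3 library 3 and a peak in 8 libraries. The BMP receptors bmpr1b and bmpr2 had one in 11 libraries each and bmpr1a in 6. Bmpr1b was the member farthest from any kept region, at 999793 bp, while its long extent of 171765 bp held 0, 1 and 1 peaks in TRα−/− T3 and 5, 3 and 6 in wild-type T3 libraries.

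Of 19 ligands, gdf9 alone was bound, and only in wild-type T3. It is known as an oocyte-secreted factor in mammals. Its region, chr3:28371992-28373203, lies 3044 bp upstream of the gene. The ranks were 16547 and 22704 in TRα−/− T3 libraries 1 and 3 and 8624 and 12885 in TRα−/− control libraries 1 and 3. They were 33854, 19572 and 10976 in wild-type T3, and the single wild-type control peak, in library 3, had rank 7485. The ranks of wild-type T3 overlapped with those of both TRα−/− conditions, and the call rested on the number of libraries with a peak.

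The other 18 ligands had no kept region, though each had a peak in at least 1 library. Bmp6 had a peak in all 12 libraries, bmp5 in 10 and bmp3 in 7, and bmp2, bmp8, bmp7.2, gdf5 and gdf11.1 in 6. Gdf1, gdf6, gdf7 and gdf10 had one in 5, bmp10 in 4, bmp4, bmp15, gdf3 and gdf15 in 3, and gdf2 in 2. Bmp4, the ligand of the intestinal connective tissue, had no peak in TRα−/− T3, 1 in TRα−/− control, none in wild-type T3 and peaks in 2 of 3 wild-type control libraries. Its best peak had rank 23940, and the nearest kept region was 71534 bp away. Bmp2 was nearer one, at 33122 bp, and bmp5 was far from any, at 674657 bp. Gdf5, a cartilage and joint ligand in mammals, had no peak in TRα−/− control and 1, 1 and 2 in wild-type control libraries.

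The activin and inhibin subunits had few peaks. Inhba, the activin A subunit, had 1 peak in wild-type T3 library 3 and none in the other 11 libraries, the fewest of all members, and its nearest kept region was 647265 bp away. The subunit genes inhbc.1 and inhbc.2 had a peak in 3 and 4 libraries. The median extent of these 3 genes was 4282 bp.

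The extracellular antagonists were not bound. Grem1, a BMP antagonist, had a peak in 9 libraries and shared a position in 2 of 3 wild-type T3 libraries. Chrd, which binds BMPs, and fst, which binds activin, had a peak in 5 libraries each, and nog in 3. Chrd had 1 peak in 2 TRα−/− control libraries and 2, 1 and 2 in wild-type control libraries, and none in either T3 condition. The pseudoreceptor bambi, which resembles a type I receptor without the kinase, had a peak in 4 libraries, none of them TRα−/− T3 or wild-type control. Of the intracellular regulators, tob1, an antiproliferative protein that binds Smads, had a peak in 10 libraries and smurf1, a ubiquitin ligase for Smads and receptors, in 7.

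Both remaining genes match the rule by name but are no BMP ligands. Bmp2k, a kinase induced by BMP2 in mouse cells, was bound in wild-type T3. Its region, chr1:75901090-75902286, had no peak in TRα−/− T3 libraries and ranks of 11804 and 14904 in TRα−/− control libraries 2 and 3. The ranks were 16651, 8417 and 32627 in wild-type T3 and 19585 and 18674 in wild-type control libraries 2 and 3. No peak there was better than rank 8417. Bmp1, a protease that cuts procollagen and chordin, had a peak in 8 libraries and no kept region.

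**Figure D4:**
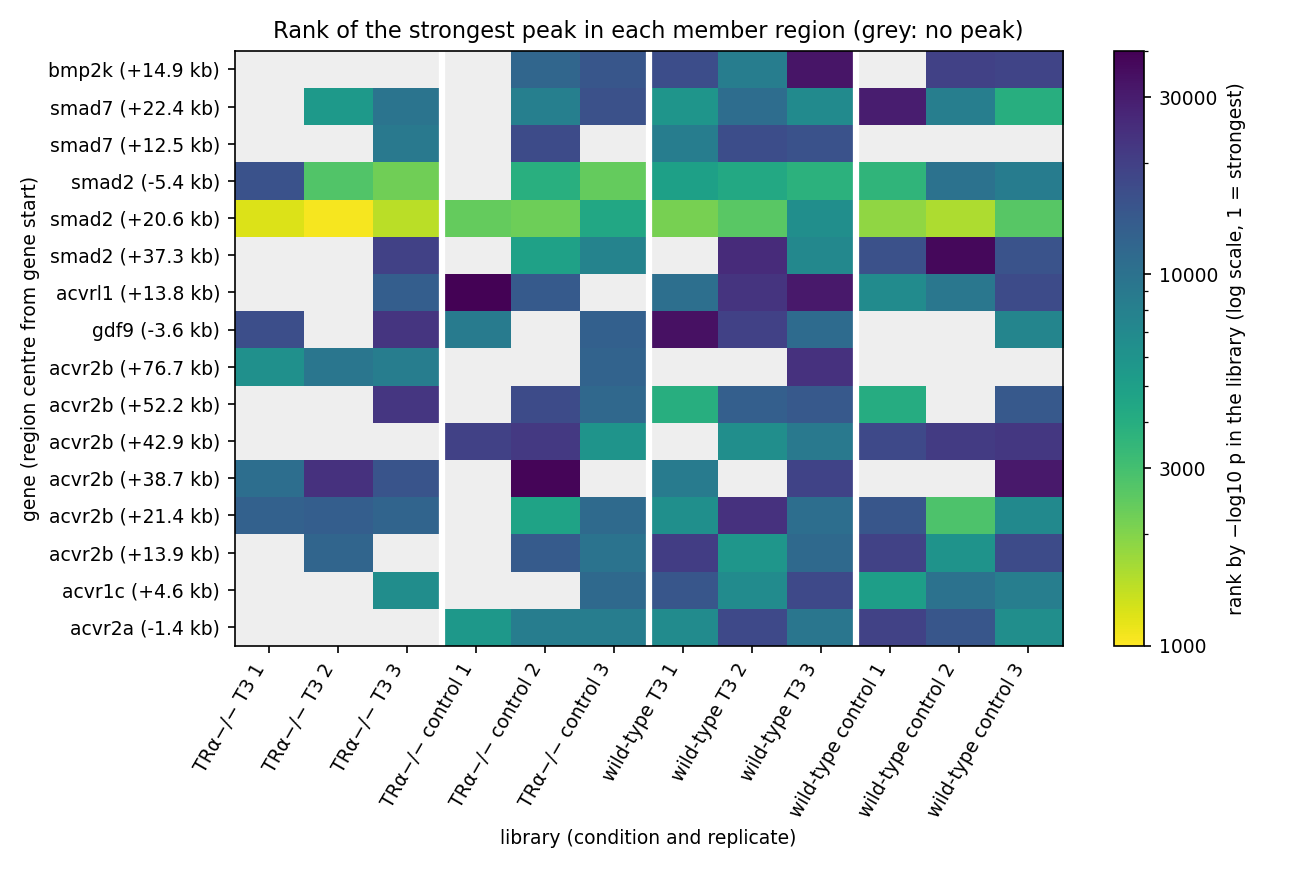
Rank by −log10 p of the strongest peak (colour, log scale, 1 = strongest in the library; grey for no peak) in the 16 kept regions at members (rows, with the distance of the centre from the gene start in kb) in the 12 libraries (columns). The smad2 region inside the gene is the only row without grey, and grey is most frequent in the TRα−/− T3 columns.

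Set beside all 15152 kept regions, the 16 member regions had weaker ranks and greater width at the median. Member regions lie at genes by rule, whereas the 15152 lie at genes or away from them. Medians for regions at genes alone were not taken. Their median rank, taken first over libraries and then over regions, was 12845 (quartiles 8947.88 and 15805.2), against 8755 (4324.5 and 13876.2) for all regions. A member region had a peak in a median of 8 libraries and any region in 10. The median width was 1068 bp for member regions and 825 bp for all. Of the member regions 12 lay inside the gene, which is 75% of them beside 72.2% of all regions at genes, and none lay on a listed exon, where 2.71% of regions did.

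TRα−/− T3 libraries had a peak in 6, 7 and 12 of the 16 regions and TRα−/− control libraries in 5, 13 and 13. Wild-type T3 libraries had one in 13, 14 and 16 and wild-type control libraries in 11, 11 and 14. Because regions were kept for their peaks in a condition, these counts describe the calls. Over all kept regions the shares were 53.8% to 71.8% in TRα−/− T3, 62.8% to 74.6% in TRα−/− control, 87.9% to 95.4% in wild-type T3 and 66.3% to 90.8% in wild-type control libraries.

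The effect of T3 in TRα−/− intestine was read first from regions present in 1 condition and absent from the other. Of 7 member regions kept in either condition, none had a peak in all 3 TRα−/− T3 and no TRα−/− control library, beside 1.05% of all such regions. For the reverse there were 2, at acvr2a and at acvr2b (chr6:6203455-6204499), beside 3.64%. With equal peaks the reverse held for 1 of 5 member regions, beside 2.03%. It held for 4 of 16 without replicate 1 (12.5% of all regions), 4 of 13 without replicate 2 (13.9%) and 5 of 11 without replicate 3 (16.1%). Presence with T3 alone held for 1 of 13 without replicate 2 (5.41%) and 2 of 11 without replicate 3 (4.91%). One member region had a peak in all 6 libraries, that inside smad2, and its ranks were better in TRα−/− T3, as 8.7% of such regions were, against 6.48% better in TRα−/− control.

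T3 in wild-type intestine gave the smad7 region named above (1 of 14, beside 2.9%) and no region for wild-type control alone, beside 0.883%. Presence with T3 alone held for 4 of 32 member regions without replicate 1 (9.28% of all regions), 2 of 20 without replicate 2 (9.21%) and 3 of 19 without replicate 3 (13.7%). Presence without T3 alone held for 2 of 32 without replicate 1 (6.59%) and 1 of 20 without replicate 2 (6.2%). Ranks did not separate the treatments in any of the 8 member regions that all 6 wild-type libraries shared, where 7.3% of regions were stronger with T3 and 4.22% without it. Leaving out replicate 1 gave 2 of 12 stronger with T3 (20.3%) and 2 stronger without it (15%). Without replicate 2, 1 of 9 was stronger without T3 (13.8%), and without replicate 3, 2 of 8 (12.9%).

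Between genotypes with T3, no member region of 14 was found in every TRα−/− library and in no wild-type one, beside 0.167%. With equal peaks 1 of 7 was, beside 0.558%, and without replicate 3 1 of 20 (1.31%). For the reverse there were 2, at acvr2a and bmp2k, beside 11.4%, and 1 of 7 with equal peaks, beside 6.14%. The reverse held for 7 of 24 without replicate 1 (24.9% of all regions), 4 of 18 without replicate 2 (23.3%) and 10 of 20 without replicate 3 (26.4%). Of 3 regions with a peak in all 6 libraries, the one inside smad2 had better ranks in TRα−/− T3, as 7.53% of regions did, and none had better ranks in wild-type T3, beside 7.21%. Ranked by fold enrichment, 1 of 3 member regions was again stronger in TRα−/− T3, beside 11%. At a −log10 q of at least 5 it was 1 of 1, beside 11.4%. Fold enrichment itself, which is not scaled to depth, overlapped between the genotypes in the smad2 region. All these ranks come from lists of different length, so a difference in strength is not shown. Leaving out replicate 1 gave 2 of 5 regions better ranked in TRα−/− T3 (20.2%) and 1 in wild-type T3 (18.8%), and leaving out replicate 2 gave 1 of 5 each (19.4% and 16.6%).

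Without T3, none of 10 member regions was found in 1 genotype and absent from the other, beside 0.908% for TRα−/− and 5% for wild type. Presence in TRα−/− alone held for 1 of 26 without replicate 1 (4.16%) and 1 of 12 without replicate 3 (8.83%). Presence in wild type alone held for 5 of 26 without replicate 1 (17.9%), 3 of 18 without replicate 2 (15.2%) and 1 of 12 without replicate 3 (12.7%). None of 3 regions separated by rank without T3, beside 8.56% stronger in TRα−/− control and 5.93% stronger in wild-type control. With replicate 1 left out 3 of 9 were stronger in TRα−/− control (19.8%), and with replicate 3 left out 1 of 4 was stronger there (20.9%) and 2 in wild-type control (16%).

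Peaks of single libraries, kept in a region or not, gave a second reading. Every member had a peak in at least 1 library, and 6 had one in all 12 (smad2, smad3, smad7, acvr1, acvr2b and bmp6), which is 12.8% beside 14% of all genes. The number of members with a peak was 12, 16 and 25 in TRα−/− T3 libraries (17.7 ± 6.66, SD, n = 3) and 29, 33 and 31 in TRα−/− control libraries (31 ± 2). It was 24, 29 and 32 in wild-type T3 (28.3 ± 4.04) and 26, 32 and 38 in wild-type control libraries (32 ± 6). TRα−/− T3 libraries were below all TRα−/− control libraries, and the other groups compared overlapped.

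The difference of T3 and control in TRα−/− was −13.3 members (exact permutation test, two-sided, p = 0.1, the smallest that 3 against 3 allows, and 0.4 adjusted over 4 comparisons). In wild type it was −3.67 members (exact p = 0.5, adjusted 0.667). TRα−/− minus wild type was −10.7 members with T3 (exact p = 0.2, adjusted 0.4) and −1 without it (exact p = 0.9, adjusted 0.9). No comparison passed 0.05, and none could have in this design. The comparisons share libraries and are not independent of each other. With 17414 peaks in each library, the difference of T3 and control in TRα−/− was −2.33 members (exact p = 0.3), and that of the genotypes with T3 was −0.333 (exact p = 1). Taken as the percentage of a library's own peaks that lay at members, TRα−/− T3 libraries had 0.138, 0.108 and 0.136% and wild-type T3 libraries 0.157, 0.171 and 0.164%. These groups did not overlap (exact permutation p = 0.1, the smallest possible, adjusted 0.4).

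The shares of all genes ran alongside. In TRα−/− T3, a mean of 37.6% of members and 40.2% of all genes had a peak, and in TRα−/− control 66.0% and 58.4%. In wild-type T3 the means were 60.3% of members and 54.9% of all genes, and in wild-type control 68.1% and 61.4%. Per Mb of gene extent and flank there were 15.3 peaks at members and 18.8 at all genes in TRα−/− T3, and 32.0 and 32.8 in TRα−/− control. Wild-type T3 had 32.3 at members and 30.8 at all genes, and wild-type control 36.6 and 37.2.

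**Figure D5:**
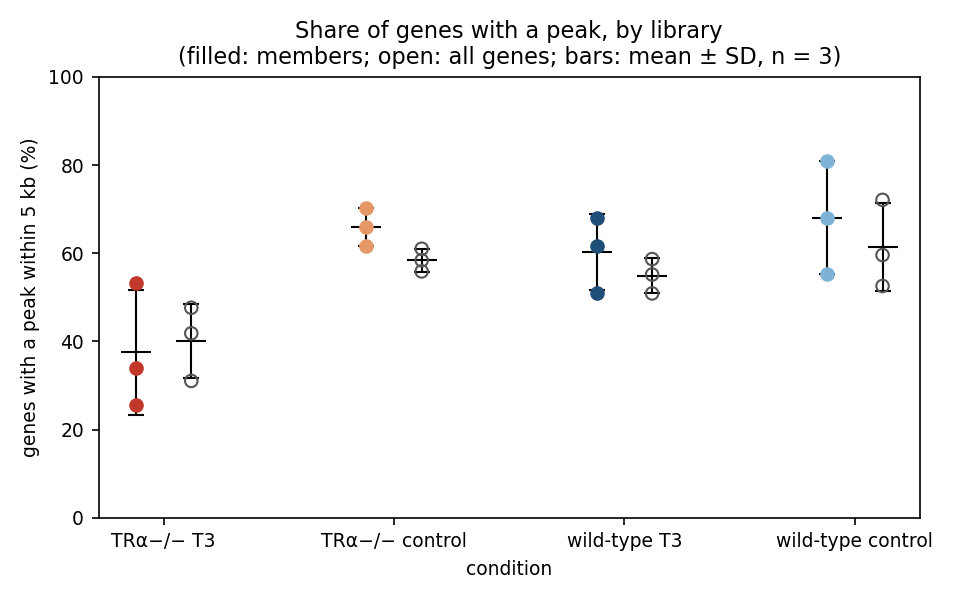
Percentage of genes with a peak in the gene extent or within 5 kb (y axis) in each library, by condition (x axis), filled for the 47 members and open for all genes, with the mean and SD of 3 libraries. The mean of TRα−/− T3 libraries is the lowest for members and for all genes, at 37.6% and 40.2%.

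Counted gene by gene, few members had peak numbers that did not overlap between conditions. Between TRα−/− T3 and TRα−/− control, acvr2a had fewer with T3 and no member had more, beside 0.157% of all genes. Between TRα−/− T3 and wild-type T3, 4 had fewer in TRα−/− T3 (acvrl1, bmp6, bmpr1b and smad3), beside 5.78% of all genes, and none had more, beside 0.142%. Bmp6 had 1, 1 and 1 peaks in TRα−/− T3 and 5, 2 and 4 in wild-type T3 libraries. Acvrl1 had 0, 0 and 1 in TRα−/− T3 and 2, 2 and 2 in wild-type T3 libraries. Between TRα−/− control and wild-type control, gdf5 and smad3 had fewer in TRα−/− control, beside 2.01%, and smad9 had more, beside 0.971%. Between wild-type T3 and wild-type control, chrd and gdf1 had fewer with T3, beside 2.51%, and none had more, beside 0.688%. With 17414 peaks in each library none of these genes was called, and smad7 was, with fewer peaks in TRα−/− T3 than in wild-type T3 beside 1.14% of genes, and more in wild-type T3 than in wild-type control, beside 0.673%.

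Bound genes were longer at the median than unbound ones, and the part of extent in the calls was not tested. The 8 bound members had a median extent of 47594 bp and the 39 unbound 15013 bp, beside 19008 bp and 11190.5 bp for all bound and unbound genes. Under 10 kb, 1 of 14 members was bound (18.4% of genes), from 10 to 30 kb 1 of 13 (24%), and at 30 kb and over 6 of 20 (33.5%). Within 50 kb of a kept region lay 26 members, 18 of them unbound, and 53.2% of all genes did. A looser rule, a peak in 2 of 3 libraries of a condition, called 19 of 47 members beside 40.5% of genes. The 11 added were acvr1, acvr1b, bmpr2, smad3, smad4.1, bmp5, bmp6, gdf5, gdf7, grem1 and tob1, so that 7 of 9 receptors and 4 of 7 Smads then had a call.

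Some members are neighbours and share a stretch of chromosome. Acvrl1 and acvr1b lie 15920 bp apart, acvr1 and acvr1c 43862 bp, gdf3 and gdf1 32615 bp, and smad3 and smad6 68567 bp. No kept region lay in the windows of more than 1 member.

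A second list held other genes of these pathways, 63 of 78 of which the lists name. Of these, 6 were bound in TRα−/− T3 (9.52%, against 11.5% of all genes), 8 in TRα−/− control (12.7%, against 13.5%), 13 in wild-type T3 (20.6%, against 21.2%) and 9 in wild-type control (14.3%, against 16%). Over all conditions 15 were bound, beside 24.2% of genes, and nedd4l, lefty, ctdsp1 and pmepa1 were bound in all 4, beside 8.52%. Ctdsp1, a phosphatase that acts on Smads, had the strongest of the regions found in all 12 libraries, chr9:77064914-77066271, at ranks of 30 to 107. That region also lies within 5 kb of mir26-2. Nedd4l, a ubiquitin ligase for activated Smad2, had a region at chr1:188544678-188544970 with a peak in all 12 libraries and ranks of 258 to 649. Pmepa1, which holds Smads away from receptors, had 3 regions inside the gene with a peak in all 12 libraries, at median ranks of 1053.5, 1410 and 4018.5. Lefty, a nodal antagonist, had such a region 608 bp downstream, at a median rank of 3882.

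Of 22 regions of this list kept in TRα−/−, none was found with T3 alone and 1 without T3 alone, beside 3.64% of all regions. This nedd4l region, chr1:188597329-188598162, had no peak in TRα−/− T3 and ranks of 13830, 17227 and 8175 in TRα−/− control libraries. Without T3, 1 of 25 regions was found in wild type alone, beside 5%, and none in TRα−/− alone. This pmepa1 region, chr10:159193-159657, had no peak in TRα−/− control and ranks of 9539, 9231 and 6799 in wild-type control libraries. With T3, 2 of 27 regions were found in wild type alone, beside 11.4%, and none in TRα−/− alone. Htra1, a secreted protease, and chrdl1, a chordin-like BMP antagonist, had a region each that no TRα−/− T3 library and every wild-type T3 library had a peak in, at wild-type T3 ranks of 21437 to 40043 for htra1 and 11817 to 26129 for chrdl1.

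Usp15, a deubiquitinase that acts on receptors and Smads of the TGFβ family, is added after its values were seen. Its region, chr3:53245459-53245708, lies inside the gene and had ranks of 1078, 637 and 573 in TRα−/− T3 and of 1571 in the single TRα−/− control library with a peak. The ranks were 24, 20 and 27 in wild-type T3 and 12, 16 and 15 in wild-type control libraries. Wild-type libraries of both treatments thus ranked it above every TRα−/− library with a peak there. Of 12 regions of this list with a peak in all TRα−/− T3 and wild-type T3 libraries, 2 were stronger in wild type without overlap, beside 7.21%. None was stronger in TRα−/− T3, beside 7.53%. No member region was stronger in wild type in this way. Within wild type the usp15 region also ranked better without T3. It was 1 of the 2 regions that did so among 15 of the list (4.22%), and 1 of the 15 ranked better with T3 (7.3%). In TRα−/−, 1 of 8 was stronger with T3 (8.7%) and none without it (6.48%). Between controls, 1 of 9 was stronger in TRα−/− (8.56%) and none in wild type (5.93%).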

How the data were processed

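TR ChIP-Seq peak lists of 12 libraries were analysed, 3 technical replicates in each of 4 conditions. The authors aligned reads with Bowtie2 2.3.4.1 and dropped redundant ones with samtools. MACS2 2.1.1.20160309 then called peaks per library, without control, at a q-value under 0.05. For each peak the authors deposited the width in bp, the pileup signal, fold enrichment as a ratio over local background, and the −log10 p-value and −log10 q-value. None of these is scaled to depth, which is unknown, so strength was compared by rank within a list. Each library's background level was taken as the smallest background that its pileup and fold enrichment imply at any peak, with MACS2's pseudocount of 1 on both.

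Lines of the same peak were reduced to 1. Within a condition, peaks sharing 1 bp or more were merged, and the merged regions in which all 3 libraries had a peak were kept. Regions kept in any condition were then joined for comparison. The extent of a gene runs from its lowest to its highest listed position. For acvrl1, bmp6, bmp7.2, bmp15, gdf1, gdf2 and grem1 the full gene feature was not listed, so 7 extents may be short. The reference gene table, on another assembly, gave symbols only: all 47 gene IDs and 17712 of 19768 in all were in it.

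The number of members with a peak per library was compared by exact permutation tests, two-sided, with Benjamini-Hochberg adjustment over 4 comparisons. All else is counted beside the same count over all genes or regions. Replicate numbers come from the labels. Deviations of same-numbered libraries from their condition means correlated at 0.300 to 0.990 in the 6 pairs of conditions. Each correlation rests on 3 libraries per condition, too few to show pairing. The labels do not say that same-numbered libraries were handled together. As an alternative, the numbers were taken as pairs in an exact sign-flip test, whose smallest p is 0.25.

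The members, the pathway list and the rules were chosen with earlier results of these data known. Values in every library are given for regions with a peak in all 12 libraries, regions in all 3 libraries of a condition and none of the one compared, and the best ranked region of each role. Other values, the peak counts per gene and the extent classes were chosen after the data were seen. As alternatives, peaks were limited to a −log10 q of 5 or more or to the 17414 strongest of each library. Others were an overlap of 50% of both peaks, a peak in 2 of 3 libraries, each replicate left out, the gene extent alone, rank by fold enrichment, the percentage of a library's peaks at members, and the replicate block. Steps were tested on simulated peaks. Python 3.11.15, numpy 2.4.6 and pandas 2.3.3 were used. No sequence of the assembly was used.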

Additional observations from a re-analysis of the deposited data

How the results depend on the processing

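Of 184 alternative values, 108 kept their direction and side of the threshold or stayed within 1.5 times, 73 moved and 3 turned direction. No p-value could reach the threshold, so a difference counted as kept by its sign alone, whatever its size. With equal peaks, T3 minus control in TRα−/− counted as kept at −2.33 members, from −13.3. TRα−/− minus wild type with T3 did so at −0.333, from −10.7. The design had 1 ChIP sample per condition, depth is unknown, and no permutation p could pass 0.05. TRα−/− minus wild type without T3 was 0.667 members with equal peaks (exact p = 0.8) and 2 without replicate 3 (range −3 to 2, exact p = 0.667), and T3 minus control in wild type was 0.00672 when taken as a percentage of a library's peaks (exact p = 0.6). With the replicate block, the differences were the same −13.3 and −3.67 members for T3 minus control in TRα−/− and wild type. TRα−/− minus wild type with T3 was −10.7, and each of these had an exact sign-flip p of 0.25 (adjusted 0.333). Without T3 it was −1, at p = 1 (exact sign-flip). Neither the paired nor the unpaired test could pass 0.05, so they cannot tell whether pairing matters to a call.

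At a −log10 q of at least 5, T3 minus control in wild type was 0 members (exact p = 1), and smad2 alone was bound in TRα−/− T3, TRα−/− control, TRα−/− over both treatments and wild-type control (1 member each), and smad2, smad7 and acvr2b (3) in wild-type T3 and in wild type over both treatments. At that limit 5.91% of all genes were bound in TRα−/− T3, 6% in TRα−/− control, 12.9% in wild-type T3 and 7.63% in wild-type control. Over both treatments the shares were 7.49% in TRα−/− and 13.5% in wild type. The region counts were then 0 for TRα−/− control alone (2.84% of all regions) and 0 for wild-type T3 alone against wild-type control (4.19%). For wild-type T3 alone against TRα−/− T3 the count was 1 (19.1%). With equal peaks, 3 members were bound in wild-type T3 (15.5% of all genes) and 5 in wild type over both treatments (16.8%). The region count was 1 for TRα−/− control alone (2.03% of all regions). It was 1 for TRα−/− T3 alone against wild-type T3 (0.558%) and 1 for the reverse (6.14%). With 2 of 3 libraries, bound members numbered 5 in TRα−/− T3 (19% of all genes) and 10 in TRα−/− control (24.3%). They numbered 15 in wild-type T3 (32.5%) and 15 in wild-type control (29.9%). Over both treatments 10 were bound in TRα−/− (27.1%) and 19 in wild type (37.6%). Bound pathway genes then numbered 20 in TRα−/− and 23 in wild type, beside the same 27.1% and 37.6%. Bound pathway genes in TRα−/− were 5 at the q-value alternative (7.49% of all genes), at an overlap of 50% (11.4%) and in the gene extent alone (9.28%). In the gene extent alone wild type had 9 (14.3%).

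With each replicate left out, a peak was asked for in 2 libraries instead of 3, which by itself tends to raise counts. In TRα−/− T3 bound members then ranged from 3 to 5 (12.8% to 15.9% of all genes). In TRα−/− control they ranged from 5 to 8 (16.6% to 18.9%). In wild type they ranged from 9 to 12 with T3 (23.5% to 28.1%) and from 6 to 15 without it (17.8% to 25.3%). Over both treatments they ranged from 6 to 8 in TRα−/− (19% to 21.8%) and 9 to 18 in wild type (26.3% to 32.5%). Regions of 1 condition alone ranged, for TRα−/− T3 against TRα−/− control, from 0 to 2 (4.91% to 5.92% of all regions). For the reverse they ranged from 4 to 5 (12.5% to 16.1%). For wild-type T3 against wild-type control they ranged from 2 to 4 (9.21% to 13.7%) and 0 to 2 (4.67% to 6.59%). For TRα−/− T3 against wild-type T3 they ranged from 0 to 1 (1.31% to 1.66%) and 4 to 10 (23.3% to 26.4%). For TRα−/− control against wild-type control they ranged from 0 to 1 (4.16% to 8.83%) and 1 to 5 (12.7% to 17.9%). Regions separated by rank ranged, in the same order, from 1 to 1 (20.9% to 22.2%) and 0 to 1 (15.1% to 16.6%) in TRα−/−. In wild type they ranged from 0 to 2 (20.1% to 20.7%) and 1 to 2 (12.9% to 15%). Between genotypes they ranged from 1 to 2 (19.4% to 20.2%) and 0 to 1 (16.6% to 18.8%) with T3. Without T3 they ranged from 0 to 3 (19.5% to 20.9%) and 0 to 2 (16% to 17.9%).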
